A study of Homo sapiens with 4 samples.

Results

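Expression of 6 target genes of the YAP coactivator, CYR61, CTGF, ANKRD1, AMOTL2, AJUBA and LATS2, was examined cell by cell in 2 established human cancer cell lines. The genes were chosen by name, with their levels, their share of cells with a transcript, their variation and their correlation in these same data already known, so these values are given as a description and no test was run on them. All 6 were found by symbol among 33540 features of the Ishikawa library and 33538 of the T-47D library. A mean of at least 10 CPM (UMIs per 1000000 UMIs) was reached by 6 of the 6 genes in Ishikawa, where 7885 genes did so, and by 4 of the 6 in T-47D, where 7440 genes did so. A UMI, or unique molecular identifier, marks 1 captured transcript. Ishikawa is an endometrial adenocarcinoma line and T-47D a ductal carcinoma line of the mammary gland, and both carry an estrogen receptor. Cultures of each line were first held in medium depleted of hormones and then received 10 nM 17β-estradiol (E2) for 2, 4 or 8 h, and a culture given only the vehicle served as 0 h. The 4 cultures of a line were marked with lipid-anchored DNA tags (MULTI-seq), mixed, and run as 1 droplet library, so that each line and time point is 1 culture with no replicate and each line is 1 library. Differences between cultures therefore have no replicate check, and a line and its library cannot be told apart.

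The Hippo pathway is a kinase cascade that reads cell density, contact and tension. Its kinases LATS1 and LATS2 phosphorylate YAP and the related TAZ (WWTR1) and keep them out of the nucleus. When the cascade is quiet, YAP and TAZ bind TEAD factors on DNA and raise a set of target genes. CYR61 and CTGF are secreted matricellular proteins of the CCN family, and ANKRD1 is an ankyrin repeat protein of muscle sarcomeres and of the nucleus. AMOTL2, AJUBA and LATS2 act back on the pathway: AMOTL2 is an angiomotin that holds YAP at junctions, AJUBA is a LIM protein that binds LATS kinases, and LATS2 is the kinase itself.

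The stretches before the annotated starts of CTGF (CCN2 in RefSeq) and ANKRD1 are shown because these genes had almost no UMIs in T-47D and were among the most variable genes of Ishikawa. They are the 250 bases before the start in RefSeq on GRCh38.p14, both on the minus strand, at chr6:131951373-131951622 for CTGF and chr10:90921088-90921337 for ANKRD1, and capitals mark GGAATG, the core of the sequence bound by TEAD factors, read on both strands.
CTGF: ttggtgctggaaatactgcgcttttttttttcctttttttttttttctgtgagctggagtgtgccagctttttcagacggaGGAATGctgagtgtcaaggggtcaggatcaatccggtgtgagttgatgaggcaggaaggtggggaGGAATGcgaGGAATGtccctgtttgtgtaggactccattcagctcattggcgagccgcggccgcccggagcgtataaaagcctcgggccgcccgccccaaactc
ANKRD1: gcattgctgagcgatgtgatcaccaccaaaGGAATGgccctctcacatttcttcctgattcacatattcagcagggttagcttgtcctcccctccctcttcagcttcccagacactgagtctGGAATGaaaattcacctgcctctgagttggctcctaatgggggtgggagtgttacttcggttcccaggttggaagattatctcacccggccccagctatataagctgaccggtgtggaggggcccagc
CTGF held 3 such cores, beginning at -169, -104 and -95 from the start, and ANKRD1 held 2, at -220 and -128. Of all 35116 promoter windows of 300 bases, 250 before to 50 after the start, 14.0% held the core at least once on either strand, 1.37% held it 2 times or more and 0.128% held it 3 times or more. One of the 2 windows of AMOTL2 and one of the 2 of AJUBA held 1 core, and the window of LATS2 held 1 just after the start. TGANTCA, a loose form of the AP-1 site that allows any base at N, was found once, in the ANKRD1 window, against 7.71% of all windows. That match reads TGATTCA and is not counted here as an AP-1 site. TATANAA, letters of a TATA box, began at -32 in both the CTGF and the ANKRD1 window, against 9.10% of all windows with a match anywhere. The searches for these 2 motifs were chosen after the sequences were seen, and all matches describe letters and not bound sites.

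Within the limits on cells, 776, 1480, 892 and 1465 Ishikawa cells were kept at 0, 2, 4 and 8 h, and 1525, 1207, 1341 and 553 T-47D cells. Kept pools held 15305038 to 30994433 UMIs in Ishikawa and 12927799 to 33175309 in T-47D, with medians of 19122 to 21436 and 20677 to 22576 UMIs per cell. The Ishikawa 0 h culture stood apart in that 38.2% of its called barcodes were within the limits, against 52.4% to 55.8% in the later cultures. In T-47D 100% of called barcodes were within the limits in each culture, so the limits removed cells in Ishikawa only. The called T-47D barcodes began at 10004 UMIs and 3002 genes, above the lower limits. The Ishikawa feature list also held 2 reporters, GFP and tdTomato, whose origin in these cells is not given in the sources used here, and GFP made up a median of 0.514% to 0.697% of a cell's UMIs, and 57.5% to 63.6% of kept cells had under 1% GFP. The 2 matrices shared 80 barcodes, 5 of them among kept cells. All 4 epithelial markers passed 10 CPM in both lines, as did all 5 endometrial markers in Ishikawa and all 5 luminal markers in T-47D. Markers of other cell types summed to 21.5 to 30.4 CPM (5 fibroblast genes, nearly all COL1A1), 0.936 to 1.44 CPM (3 endothelial genes, CDH5 at 0) and 1.5 to 2.38 CPM (3 leukocyte genes) in Ishikawa. In T-47D these sums were 13.2 to 17.1, 0.0754 to 0.155 (CDH5 and PECAM1 at 0) and 0.0774 to 0.679 CPM.

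Before E2, CYR61, CTGF and ANKRD1 differed far more between the lines than AMOTL2, AJUBA and LATS2, here called the feedback genes. CYR61 was at 473 CPM in Ishikawa and 41.2 CPM in T-47D, a ratio of 11.5 (95% interval 10.8 to 12.2). ANKRD1 was at 563 CPM from 8618 UMIs in Ishikawa and 0.422 CPM from 14 UMIs in T-47D, a ratio of 1334 (795 to 2442). CTGF had 691 UMIs in Ishikawa and 1 UMI in T-47D, a ratio of 1498 whose counting interval runs from 268 to 59245. Ishikawa was the higher line for each of these genes at every time point. The feedback genes were 1.42 to 1.68 times as high in Ishikawa: AMOTL2 by 1.68 (1.52 to 1.85), LATS2 by 1.53 (1.34 to 1.76) and AJUBA by 1.42 (1.23 to 1.64). Among the factors that act on these genes, YAP1 was slightly lower in Ishikawa, at a ratio of 0.866 (0.779 to 0.962), TAZ (WWTR1) had a ratio of 1.12 (0.983 to 1.27), and TEAD1 and TEAD4 had ratios of 2.42 (2.13 to 2.75) and 2.03 (1.81 to 2.27). All such intervals are exact Poisson or binomial intervals at 95% and cover counting error only, not the spread between cells or between cultures. CYR61, CTGF and ANKRD1 varied between Ishikawa cells far more than counting gives, so their Poisson intervals there are too narrow.

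After E2 the 2 secreted proteins and ANKRD1 had their highest Ishikawa levels at 4 and 8 h. ANKRD1 stood at 563, 566, 785 and 731 CPM at 0, 2, 4 and 8 h, a log2 difference from 0 h of 0.01, 0.48 (95% interval 0.44 to 0.52) and 0.38 (0.34 to 0.41). CYR61 stood at 473, 444, 568 and 548 CPM, log2 differences of -0.09, 0.26 and 0.21. Over all kept cells both genes were level with or below the vehicle culture at 2 h and above it later. CTGF stood at 45.1, 23.5, 52.8 and 54.3 CPM, and its drop at 2 h, with a log2 difference of -0.92 (-1.10 to -0.79), was the only one of the 6 genes past 1.5-fold in any comparison. At 2 h 1 of 6 genes was thus past the fold rule, against 1.45% of all genes, and 0 of 6 were past it at 4 h and 8 h, against 1.26% and 1.28%. Log2 differences are of CPM + 1, which understates low genes, and the median over all genes lay between -0.01 and 0.01 in each comparison.

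The CTGF drop moved with the reporter. In cells with under 1% GFP, CTGF stood at 25.5, 20.4, 45.5 and 45.1 CPM over 446, 942, 541 and 901 cells, so that the 2 h difference was -0.31 and no longer past 1.5-fold, while 4 h and 8 h were past it at 0.81 and 0.80. The CTGF level at 2 h was the lowest of the 4 in both sets of cells. With 2 h in place of 0 h as the base, an alternative chosen after this was seen, CTGF was higher by 1.14 at 4 h and 1.18 at 8 h and again the only gene of the 6 past 1.5-fold. In cells with no UMI of the division genes TOP2A and MKI67, CTGF stood at 52.4, 28.9, 56.0 and 52.4 CPM, level at 8 h with 0 h and with a 2 h difference of -0.84. CYR61 had log2 differences of -0.26, 0.16 and 0.09 in them. In the same cells ANKRD1 stood at 626, 463, 716 and 609 CPM, and its log2 differences became -0.43, 0.19 and -0.04. In cells under 1% GFP, ANKRD1 stood at 399, 500, 574 and 582 CPM and CYR61 at 378, 390, 509 and 493 CPM. Both were thus above the vehicle culture at 2 h in these cells, with log2 differences of 0.33 and 0.05. The part of the reporter and of dividing cells in these differences was not tested.

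The feedback genes had smaller differences in Ishikawa. AMOTL2 stood at 45.3, 59.2, 55.3 and 57.7 CPM, log2 differences of 0.38 (0.26 to 0.51), 0.28 (0.15 to 0.43) and 0.34 (0.22 to 0.48), and was thus above the vehicle culture at every time. Over all kept cells LATS2 stood at 23.1, 16.2, 17.4 and 19.8 CPM and AJUBA at 20.3, 15.2, 16.9 and 18.5 CPM. Both were lowest at 2 h and nearest to the vehicle level at 8 h. Their log2 differences were -0.49, -0.39 and -0.21 for LATS2 and -0.39, -0.25 and -0.13 for AJUBA, the last with an interval (-0.34 to 0.07) that includes no change. Where neither division gene was detected, AJUBA was not lower, at 18.4, 18.6, 19.0 and 20.9 CPM (log2 differences 0.01, 0.04 and 0.17). LATS2 stood there at 25.3, 17.1, 21.5 and 18.6 CPM, nearest to the vehicle level at 4 h. Under 1% GFP both genes were again lowest at 2 h, but LATS2 was above the vehicle culture at 8 h, by 0.11. The cause of these shifts was not tested.

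In T-47D none of the 4 genes at 10 CPM was past 1.5-fold at 2, 4 or 8 h, against 1.64%, 1.69% and 3.06% of all genes. CYR61 stood at 41.2, 33.4, 37.4 and 31.3 CPM and was below the vehicle culture throughout, with log2 differences of -0.30, -0.14 and -0.39. AMOTL2 stood at 27.1, 20.3, 21.6 and 21.3 CPM, log2 differences of -0.40 (-0.57 to -0.26), -0.31 (-0.48 to -0.18) and -0.33 (-0.54 to -0.15), the opposite sign to Ishikawa at each time. AJUBA stood between 11.1 and 14.3 CPM and LATS2 between 13.1 and 15.4 CPM, and no interval of LATS2 left out no change. ANKRD1 had 14, 24, 21 and 8 UMIs in the whole pools, or 0.422, 0.905, 0.708 and 0.619 CPM. Its ratios to 0 h were 2.14 (1.07 to 4.48), 1.68 (0.814 to 3.57) and 1.47 (0.533 to 3.75), so that the 2 h interval alone left out no change, from 24 UMIs against 14. CTGF had 1, 0, 0 and 1 UMI, and no change in it was detectable at this depth.

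**Figure D1:**
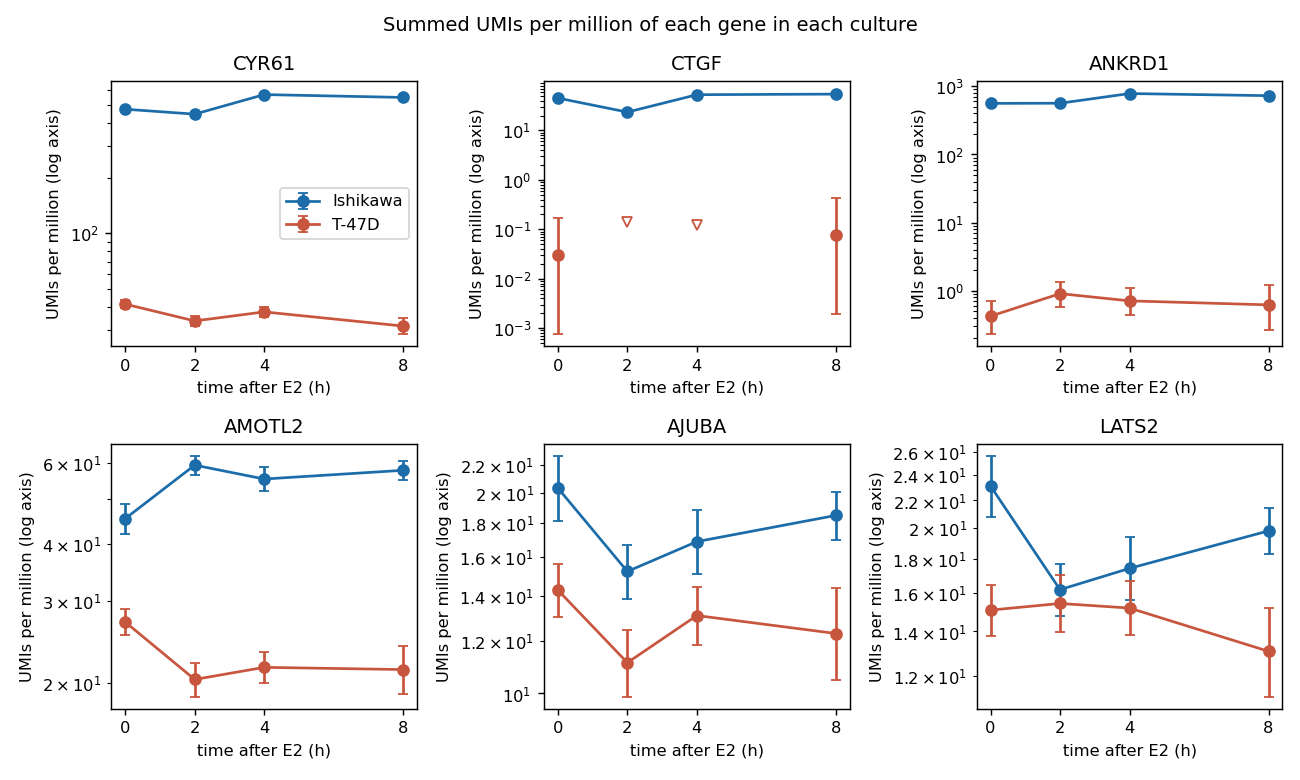
Summed CPM (log axis, with its own scale in each panel) of the 6 genes against hours after E2 in Ishikawa and T-47D, 1 culture per point, with exact Poisson 95% intervals; open triangles mark the upper bound where no UMI was found. CTGF in Ishikawa dips to 23.5 CPM at 2 h, and AMOTL2 lies above its 0 h level in Ishikawa and below it in T-47D at every later time.

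The other genes of the pathway gave few differences. Of 17 Hippo kinases and scaffolds, a list that includes LATS2, AMOTL2 and AJUBA, 14 passed 10 CPM in Ishikawa and none was past 1.5-fold. In T-47D 11 passed and PTPN14, a phosphatase that binds YAP, was lower at 2 h by a log2 difference of -0.66. None of the 5 YAP, TAZ and TEAD genes at 10 CPM was past 1.5-fold in either line: YAP1 lay between 32 and 36.6 CPM in Ishikawa and between 34.0 and 37.5 CPM in T-47D. In Ishikawa WWTR1, TEAD1 and TEAD4 ranged from 23.4 to 30.5, 26 to 34.4 and 34.7 to 42.2 CPM, and the same genes ranged in T-47D from 17.7 to 21.7, 12.7 to 14.8 and 18.9 to 20.8 CPM. Of 9 other YAP signature targets measured in Ishikawa, 1 was lower, IGFBP3 at 8 h (-0.69), an insulin-like growth factor binding protein. Of 6 in T-47D, PTPN14 was lower at 2 h, as above, and MYOF, the membrane repair protein myoferlin, was higher at 8 h (0.60). The median log2 difference of the 9 in Ishikawa was -0.20, -0.11 and -0.31 at 2, 4 and 8 h.

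Other lists were read in the same way. Among 12 cytoskeletal targets of SRF, a factor that answers to actin, only FHL2 was past 1.5-fold, with log2 differences of 0.68, 1.03 and 0.86 in Ishikawa over the 3 times. In T-47D its 2 h and 8 h values, 1.08 and 0.90, also passed. Of 7 immediate-early genes measured in Ishikawa, 4 were lower at 2 h, where 1.45% of all genes were past the rule in either direction: IER3 (-1.57), ATF3 (-0.80), JUNB (-0.75) and IER2 (-0.71). IER3 stayed lower at 4 and 8 h (-1.57 and -1.38), JUNB was lower at 4 h (-0.61), and EGR1 was higher at 8 h (1.35). In T-47D IER3 was instead higher at all 3 times (1.27, 0.96 and 1.08). The heat shock gene HSPA6 was lower in Ishikawa at 2 and 8 h (-1.78 and -0.84). Of the cell-cycle lists, only S phase genes of T-47D at 8 h passed the rule, 5 of the 7 at 10 CPM. They were MCM5, MCM6, TYMS, GINS2 and CDC6, all higher. Among the markers in T-47D, 1 of 4 epithelial genes was higher at 4 h and 1 at 8 h. Of 5 luminal genes 1, 2 and 2 were higher there at 2, 4 and 8 h. The marker genes higher at 1 time or more were PGR, ESR1, KRT8, KRT18 and KRT19. Over all genes in T-47D, 1.64%, 1.69% and 3.06% were past the rule at 2, 4 and 8 h.

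The 6 genes were next compared by how unevenly their UMIs were spread over cells. ANKRD1 was found in 57.9%, 51.6%, 63.3% and 59.6% of Ishikawa cells at 0, 2, 4 and 8 h, and the median cell held 1 UMI in each culture. The highest cells held 319, 482, 348 and 534 UMIs, and the top 10% of cells held 68.3%, 75.9%, 65.1% and 66.8% of all ANKRD1 UMIs. Most of the UMIs thus lay in a minority of the cells, and a cell without a UMI may still hold transcripts that were not captured. Cells with 50 or more UMIs made up 6.57%, 6.35%, 10.9% and 9.76% of the cultures, and cells without any 42.1%, 48.4%, 36.7% and 40.4%. In T-47D, at similar depth, 0.918%, 1.74%, 1.49% and 1.08% of cells had an ANKRD1 UMI, with at most 3 in a cell. The Ishikawa shares thinned to 12539 UMIs per cell were 51.5%, 45.7%, 55.8% and 52.4%.

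CYR61 was present in more Ishikawa cells, 81.1%, 75.3%, 83.4% and 83.8%, with median cells at 3, 2, 4 and 4 UMIs and maxima of 201, 255, 546 and 202. The top 10% of cells held 49.1% to 56.1% of its UMIs. CTGF was found in 26.3%, 15.6%, 26.7% and 27.4% of cells, and the top 10% of cells held 77.1% to 88.2% of its UMIs. The 95% interval of the 2 h share of CTGF was 13.8% to 17.6%, and the lowest of those of the other cultures began at 23.2%. Cells of a culture are not replicates, so these intervals do not test a difference between cultures. The feedback genes had no such tail: no Ishikawa cell held more than 12 UMIs of AMOTL2, AJUBA or LATS2, which were found in 49.2% to 60.1%, 23.4% to 29.3% and 22.8% to 31.4% of cells. In T-47D CYR61 was found in 41.2% to 47.1% of cells with up to 31 UMIs, and CTGF in 0 of 1207 cells at 2 h and 0 of 1341 at 4 h, which allows shares of up to 0.249% and 0.224% by a limit of 3 counts.

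**Figure D2:**
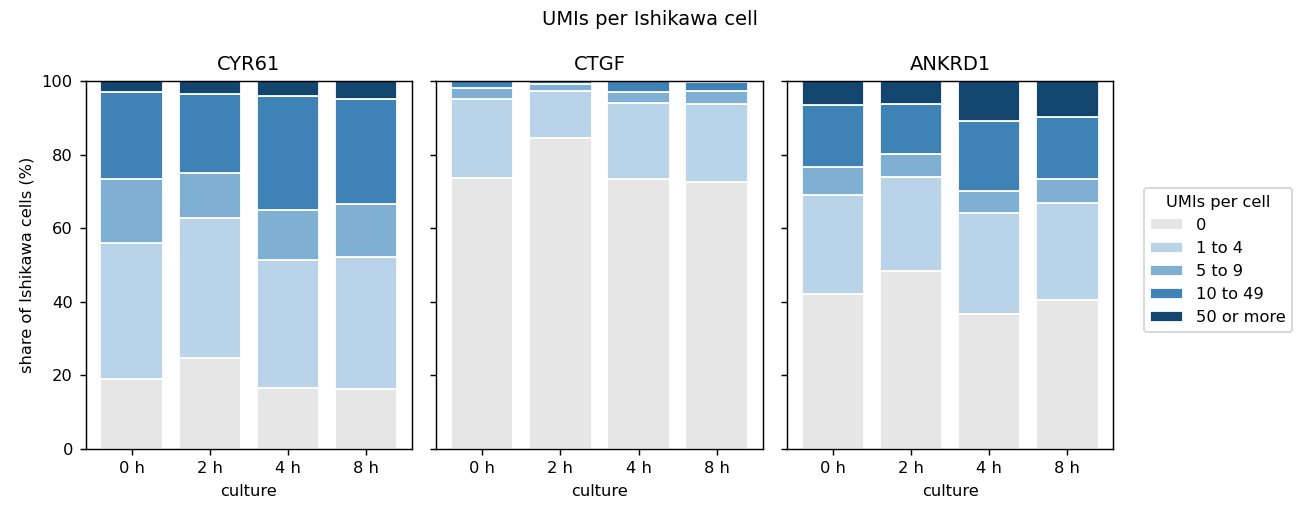
Share of Ishikawa cells (%, stacked bars) by the number of UMIs of CYR61, CTGF or ANKRD1 in the cell, for each culture. For ANKRD1 the bars hold both a large class without UMIs (36.7% to 48.4%) and a class of 50 UMIs or more (6.35% to 10.9%), and for CTGF the class without UMIs is largest at 2 h.

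Variation was measured by the coefficient of variation (CV), the standard deviation over the mean of UMIs per 10000, and set against the CV that counting alone gives at the same mean and depth. The CV of ANKRD1 in Ishikawa was 2.32, 2.67, 2.11 and 2.49 at 0, 2, 4 and 8 h, which is 7.34, 8.43, 8.36 and 9.45 times the counting value. The CV of CYR61 was 1.73, 1.93, 1.86 and 1.62, or 5.0, 5.50, 6.24 and 5.28 times it. The CV of CTGF was 3.75, 4.38, 3.38 and 3.72, or 3.42, 2.87, 3.40 and 3.90 times it. Over all 7885 genes the median of this ratio was 1.08 to 1.10 and the 95th percentile 1.59 to 1.64, so that these 3 genes lay far above the bulk in every culture. Residuals were taken from a smooth curve of log2(CV + 1) on log10 mean. By them ANKRD1 ranked 8, 5, 9 and 9 of 7885 genes, CTGF 11, 14, 12 and 11, and CYR61 24, 17, 18 and 23.

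The feedback genes varied little beyond counting in Ishikawa. AMOTL2 had 1.17 to 1.28 times the counting CV, AJUBA 1.19 to 1.42 times and LATS2 1.13 to 1.30 times. They nonetheless entered the High class, the upper 20% of genes at a like mean, in all but 1 case, AMOTL2 at 0 h. In all 5 of 6 genes were in the High class at 0 h and 6 of 6 at 2, 4 and 8 h, against 20% of all genes by construction. In T-47D 1, 2, 2 and 1 of the 4 genes were in it, again against 20%, always CYR61, at 1.24 to 1.56 times the counting CV, and AMOTL2 at 2 and 4 h. AJUBA and LATS2 in T-47D stayed between 1.00 and 1.07 times the counting CV. Since the genes were selected on these values, the counts describe the selection.

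**Figure D3:**
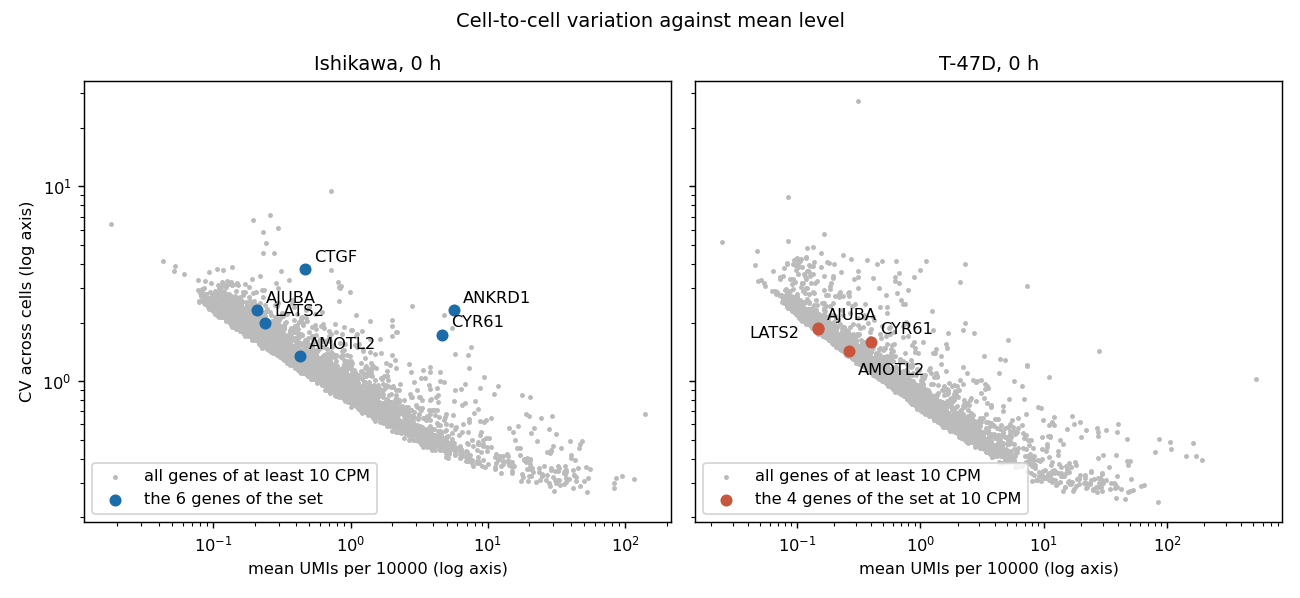
CV across cells against mean UMIs per 10000 (both log axes) at 0 h for all genes of at least 10 CPM (grey) and the genes of the set (coloured, labelled) in Ishikawa and T-47D. ANKRD1, CYR61 and CTGF lie above the grey band in Ishikawa, at 7.34, 5.0 and 3.42 times the counting CV, while the T-47D points lie in or at the edge of it.

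Other lists were scored in the same way, without the 6 genes. Of 9 other YAP signature targets in Ishikawa, 5 to 8 were in the High class, CRIM1, GADD45A, IGFBP3, MYOF and TGFB2 in every culture, with a median ratio to counting of 1.19 to 1.29. Of 11 Hippo kinases and scaffolds 1 to 4 were High, and of 5 YAP, TAZ and TEAD genes 1 or 2, TEAD1 in every culture. For so few genes these counts are near the share of all genes. All 7 immediate-early genes were High in every Ishikawa culture, as were 10 or 11 of 12 SRF targets, all 5 heat shock genes and all 8 genes of G2 and mitosis, with median ratios to counting of 3.14 to 3.88 for heat shock and 2.35 to 2.53 for G2 and mitosis. The immediate-early genes had medians of 1.65 to 2.88. High genes were common in these lists in T-47D too: 3 to 5 of 6 other YAP signature targets and 5 or 6 of 6 immediate-early genes. So were 5 or 6 of 8 SRF targets, 3 or 4 of 5 heat shock genes and all 8 genes of G2 and mitosis. Of 8 Hippo kinases and scaffolds 1 or 2 were High there, and of 5 YAP, TAZ and TEAD genes 0 to 2.

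Correlation across cells was measured by Spearman's rho within each culture, in cells thinned to 1 depth (12539 UMIs in Ishikawa and 14495 in T-47D, which left out 461 and 463 shallower cells). Cells of a culture share a library and are not replicates, so no p is given, and weak values in sparse counts are no finding. In Ishikawa CYR61, CTGF and ANKRD1 went together. For CYR61 and ANKRD1 rho was 0.492, 0.548, 0.538 and 0.541 at 0, 2, 4 and 8 h over 676, 1305, 835 and 1336 cells. For CYR61 and CTGF it lay between 0.386 and 0.461, and for CTGF and ANKRD1 between 0.356 and 0.453. These 3 pairs had the highest rho of the 15 in each culture, and their order by mean (0.530, 0.431 and 0.411) separated only the first pair beyond its range over cultures.

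The other 12 Ishikawa pairs averaged 0.040 to 0.168. Over all thinned cells LATS2 had the highest means of the feedback genes with the trio. They were 0.168 with ANKRD1 (0.133 to 0.183), 0.160 with CYR61 (0.143 to 0.173) and 0.106 with CTGF. The ranges of AJUBA overlapped these, at 0.084 to 0.166 with ANKRD1 and 0.103 to 0.187 with CYR61. In cells under 1% GFP the mean of ANKRD1 and LATS2 was 0.117, whereas ANKRD1 and AJUBA had at least 0.122 under every alternative. AMOTL2 averaged 0.133 with CYR61 but 0.053 with CTGF and 0.040 with ANKRD1, the latter between -0.021 and 0.126. Pairs at or above 0.1 numbered 10, 10, 8 and 9 of 15, where 2.62%, 0.830%, 1.71% and 1.15% of all gene pairs reached that value, and the median of the 15 was 0.122, 0.140, 0.105 and 0.133, beside 0.006 to 0.008 over all pairs. In T-47D 1, 0, 0 and 1 of 6 pairs reached 0.1, where 1.18%, 1.3%, 1.23% and 3.02% of all pairs did, and the pair medians were 0.009, 0.024, 0.040 and 0.005, beside 0.003 over all pairs.

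**Figure D4:**
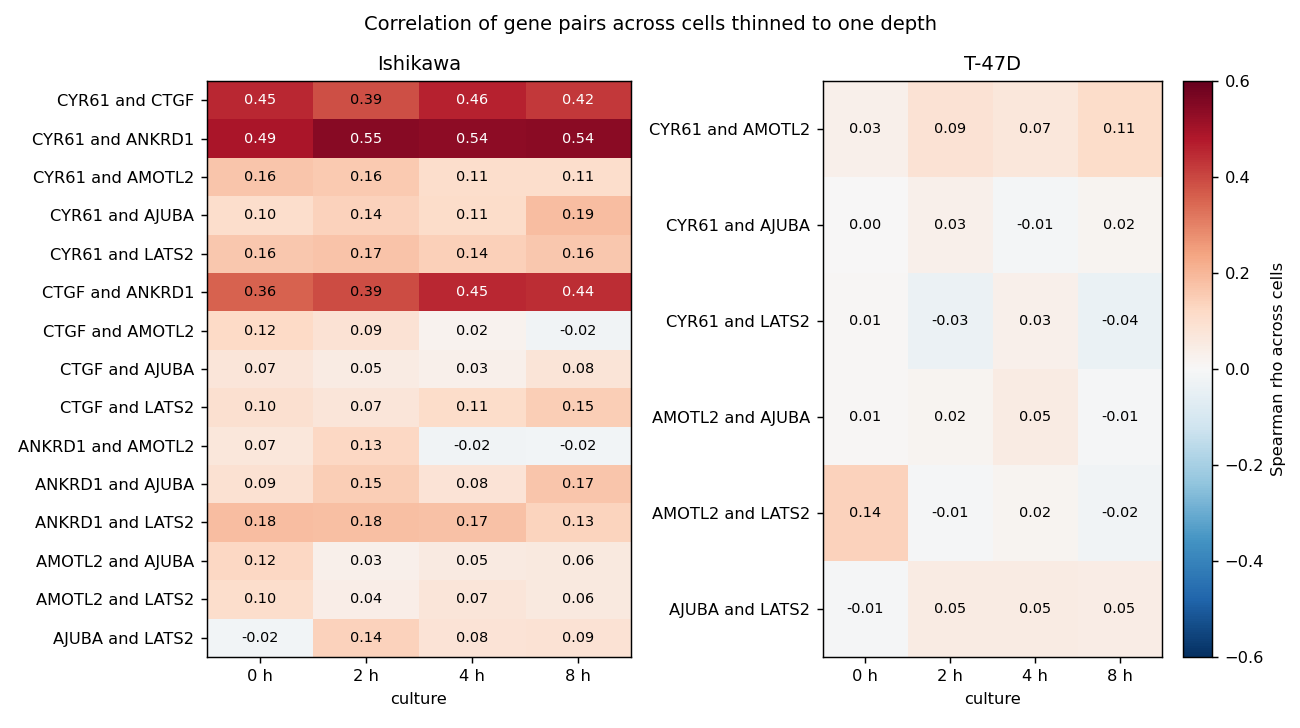
Spearman's rho across thinned cells (colour and printed value) for each pair of genes of the set in each culture, 15 pairs in Ishikawa and the 6 pairs of at least 10 CPM in T-47D. The 3 pairs among CYR61, CTGF and ANKRD1 stand between 0.356 and 0.548, above every other cell of the map.

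The same co-variation, a value the genes were chosen by, was also described by detection in the same thinned cells. Among Ishikawa cells with no ANKRD1 UMI, a CTGF UMI was found in 10.4%, 3.67%, 7.86% and 5.82% at 0, 2, 4 and 8 h, and among cells with 5 or more ANKRD1 UMIs in 43.5%, 37.1%, 47.9% and 46.6%. Cells with 1 to 4 UMIs lay between, at 19.1%, 10.8%, 18.4% and 17.1%. At 2 h the intervals of the lowest and highest classes were 2.41% to 5.33% and 31.5% to 42.9%, given as description only. The share with CTGF was lowest at 2 h in each class of ANKRD1, but in each class its interval overlapped that of at least 1 other culture. By CYR61, the share with CTGF ran from 1.49% to 5.10% in cells without its UMI to 32.3% to 45.3% in cells with 5 or more. CYR61 itself was found in 94.1% to 97.1% of cells with 5 or more ANKRD1 UMIs and in 56.1% to 62.8% of cells without any.

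**Figure D5:**
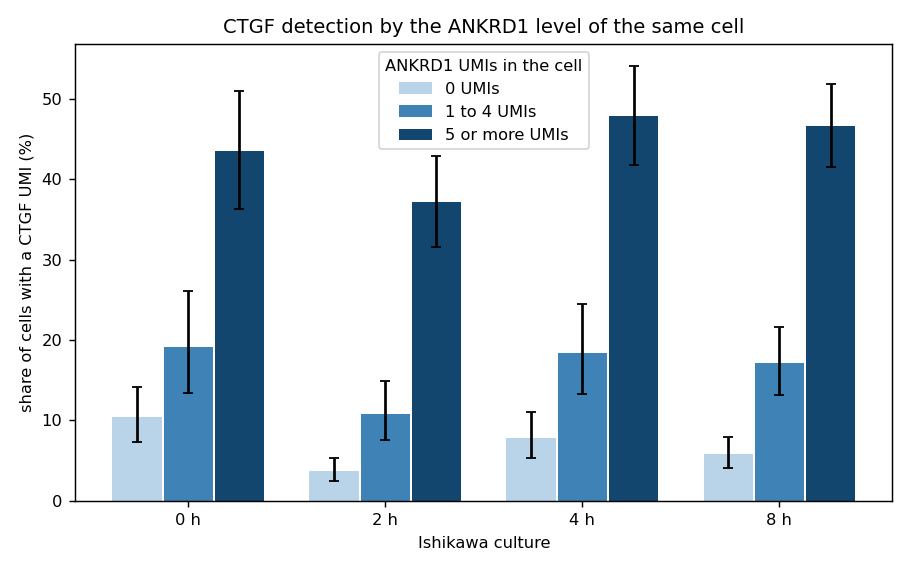
Share of Ishikawa cells (%) with a CTGF UMI in each culture, by the number of ANKRD1 UMIs in the same thinned cell, with exact binomial 95% intervals. In every culture the share is lowest in cells without ANKRD1 (3.67% to 10.4%) and highest in cells with 5 or more UMIs (37.1% to 47.9%).

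The genes whose pattern across Ishikawa cells was most like that of the 6 were then ranked by mean rho over the 4 cultures. Each of ANKRD1 and CYR61 was the other's first partner of 7884 genes, and CTGF had CYR61 first and ANKRD1 second. Against the summed UMIs of the 6 genes, in which ANKRD1 and CYR61 weigh most, the leading genes outside the set were CALD1 (mean rho 0.513), an actin-binding caldesmon, TNFRSF12A (0.466), the receptor of TWEAK, KRTAP2-3 (0.448), a keratin-associated protein, JUN (0.432), an AP-1 factor, and GADD45B (0.432), a stress-response gene. CALD1 was also among the first 3 partners of each of the 3 genes, KRTAP2-3 was second for ANKRD1 (0.447), and TNFRSF12A followed CALD1 for CYR61 (0.446). The feedback genes had weak partners: ANKRD1, CYR61 and RND3 for LATS2, RND3, CYR61 and TNFRSF12A for AJUBA, and PLK2, CYR61 and PPFIBP1 for AMOTL2, at means of 0.126 to 0.168.

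YAP1 itself had mean rho of 0.004, 0.031 and 0.020 with CYR61, CTGF and ANKRD1. Its UMIs were sparse in thinned cells, so these low values do not show whether YAP1 tracked its targets. TEAD1 reached 0.195, 0.116 and 0.209, WWTR1 0.123, 0.085 and 0.113, and TEAD4 0.086, 0.076 and 0.10. The summed UMIs of the 9 other YAP signature targets gave 0.400, 0.281 and 0.397, and those of the 7 immediate-early genes 0.365, 0.242 and 0.360. The summed UMIs of the 12 SRF targets, in which the most abundant weigh most, gave 0.294 with CYR61, 0.158 with CTGF and 0.120 with ANKRD1. Members of that list differed: in the same order TAGLN had 0.315, 0.209 and 0.257, and ACTB had 0.108, 0.023 and -0.045. For ACTG1, a cytoplasmic actin of that list, the mean was 0.10 with CYR61 and -0.092 with ANKRD1, whereas TPM1, a tropomyosin, had 0.404 and 0.266.

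Depth, mitochondrial share and the lists of the cell cycle had mean rho between -0.071 and 0.032 with CYR61, CTGF and ANKRD1. The GFP share moved with them, at 0.176, 0.107 and 0.222, and heat shock genes moved the other way, at -0.121, -0.083 and -0.139. In cells under 1% GFP the mean rho was 0.515 for CYR61 and ANKRD1, 0.420 for CYR61 and CTGF and 0.403 for CTGF and ANKRD1, against 0.530, 0.431 and 0.411 in all cells. For ANKRD1 and LATS2 it was 0.117 in these cells, against 0.168 in all cells. In T-47D no gene passed a mean rho of 0.094 with CYR61, the first 3 being RCAN1, HLA-C and CDKN2B. PTPN11, SATB1 and PAK2 led for AMOTL2, CPE, LARGE2 and ARID5B for AJUBA, and RPS20, CLTC and MT-ND6 for LATS2, at 0.064 to 0.092. For the sum of the genes the leaders were RCAN1 (0.138), CD24, PLS1, PLS3 and CDV3.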

How the data were processed

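Single-cell gene expression was measured in 1 droplet library for each line. The authors made the deposited counts of UMIs per gene and barcode with Cell Ranger 3.1.0, and the submitters' processing notes name hg38. They assigned barcodes to time points with the demultiplex R package. Cells entered the analysis if their barcode had a single time point and lay inside the study's bounds for UMIs (8500 to 35000 in Ishikawa and 7500 to 40000 in T-47D), genes (2700 to 6000 and 1500 to 6000) and mitochondrial share (under 7% and 20%), taken from its methods. Doublet calls (1906 and 1442 barcodes) and barcodes with no call (4002 and 12120) were left out, and no further doublet caller was run, so pairs of cells from the same culture may remain.

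UMIs were summed over the kept cells and scaled to CPM. With 1 culture per line and time point, no test was run. A gene passed the fold rule at a mean of at least 10 CPM and 1.5-fold, on log2(CPM + 1). The value log2(CV + 1) was regressed on log10 mean with a generalised additive model (mgcv 1.9.3, R 4.3.3). The High class is the top 20% of residuals in each of 10 bins. The study instead fitted log2(CV + 1) on the mean and returned the residuals to the original scale. Spearman's rho was taken in cells thinned to the 10th percentile of depth. Alternatives covered the pseudocount, TMM (edgeR 4.0.16) and median-of-ratios factors, limits on cells and CPM, the fold, thinning, the measure of correlation and subsets of cells. Python 3.11.15 with numpy 2.4.6, scipy 1.17.1 and pandas 2.3.3 was used for the rest. The code was tested on simulated data.

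The genes and lists were chosen with earlier results of these data known. Named genes are the 6 genes, YAP1, WWTR1, TEAD1 and TEAD4, list members past the fold rule, the 5 leading partners of the summed genes in each line and the 3 of each gene, while YAP target, SRF and actin genes given for their rho or High class were chosen after their values were seen. Lists covered Hippo kinases and scaffolds, YAP, TAZ and TEAD factors, other YAP signature targets, the CCN family, SRF targets, immediate-early, heat shock, S phase and G2 genes, and cell type markers. Of the 6 CCN genes only CYR61 and CTGF passed 10 CPM in Ishikawa and only CYR61 in T-47D. Promoters came from RefSeq windows matched by symbol or synonym for 5 of the 6 genes.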

Additional observations from a re-analysis of the deposited data

Results flagged for a closer look

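AMOTL2 had opposite signs in the lines at every time. In Ishikawa its log2 differences from the vehicle culture were 0.38 at 2 h, 0.28 at 4 h and 0.34 at 8 h, and in T-47D they were -0.40, -0.31 and -0.33. No sign of it turned under any alternative run, but its size did change. In Ishikawa cells without TOP2A and MKI67 UMIs the 4 h difference was 0.07. There AMOTL2 stood at 47.7 CPM (41.7 to 54.4) at 4 h, against 45.3 CPM (39.3 to 51.9) at 0 h. With 1 culture each, whether the lines differ was not tested.

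Barcodes outside the comparisons carried higher levels than the kept 0 h cells in several cases. In Ishikawa doublets CYR61 stood at 491 CPM and ANKRD1 at 644 CPM, against 473 and 563 in kept 0 h cells. Both values lay within the ranges of the kept cultures over all times, 444 to 568 and 563 to 785 CPM. AMOTL2 stood at 55.4 CPM in barcodes without a call, 64.2 CPM in doublets and 72.2 CPM in called barcodes outside the limits. It was at 45.3 CPM in kept 0 h cells and at up to 59.2 CPM in the kept cultures, above the value without a call. In T-47D doublets CTGF stood at 0.329 CPM from 12 UMIs and ANKRD1 at 2.11 CPM from 77 UMIs, against 0.030 and 0.422. These barcodes have no single time point, apart from those outside the limits, so time and barcode type cannot be told apart.

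With 1 culture in each group, no outlying sample within a group was looked for.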

How the results depend on the processing

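Of 77 alternative counts of genes past the fold rule, 65 were within 1.5 times the main count. In Ishikawa the count of 1 at 2 h became 0 with a minimum of 50 CPM, with a fold of 2 and in cells under 1% GFP, and 4 with the lower fold limit tried (CTGF, AMOTL2, AJUBA and LATS2). The counts of 0 at 4 h and 8 h became 2 each with the lower fold limit (ANKRD1 with LATS2 and ANKRD1 with AMOTL2) and 1, CTGF, in cells under 1% GFP or with 2 h as the base. In T-47D the counts of 0 at 2 h and 8 h became 2 with it (AMOTL2 with AJUBA and CYR61 with AMOTL2). Pseudocounts, TMM and median-of-ratios factors, thinning, no minimum CPM, the lower UMI limit, leaving out reporter UMIs, every called barcode and cells without TOP2A and MKI67 UMIs left all of these counts as they were. Over all genes, in the order 2, 4 and 8 h and with Ishikawa before T-47D, the main counts were 114, 99 and 101, and 122, 126 and 228. The lower fold limit gave 512, 567 and 639, and 379, 539 and 859, a fold of 2 gave 23, 17 and 24, and 41, 41 and 71, no minimum gave 379, 434 and 391, and 280, 306 and 613, and a minimum of 50 CPM gave 25, 19 and 25, and 38, 41 and 68. In Ishikawa a pseudocount of 5 gave 72, 64 and 67, cells without TOP2A and MKI67 UMIs gave 242, 238 and 171, every called barcode gave 161 at 4 h, and cells under 1% GFP gave 150 at 4 h. Of 40 alternative counts in the High class 38 were within 1.5 times. The T-47D count of 2 at 2 h became 1 in thinned cells and without the top 1% of cells. Of 208 alternative CVs 81 moved by at least the standard deviation of the CV over the cultures of the line. Without the top 1% of cells the Ishikawa CV of CTGF fell from 3.75 to 2.55 at 0 h and from 4.38 to 3.23 at 2 h. That of ANKRD1 fell from 2.49 to 2.02 at 8 h. The median rho over pairs, averaged over cultures, was 0.125 in Ishikawa and 0.0193 in T-47D, and became 0.153 and 0.0416 without thinning and 0.156 and 0.0416 as Pearson's r of log2 values. No value past the fold rule turned sign. Of 264 log2 differences under alternatives, 14 had another sign than the main value, all of them under 1.5-fold. Outside the counting interval of the main value lay 41 of the 264. Of 114 alternative mean rhos of pairs, 31 moved by at least their standard deviation over cultures. The cause of these moves was not tested. No paired analysis was possible because each line and time point is 1 culture. Precision is limited by counts in T-47D, where CTGF had 2 UMIs in all.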

Other observations

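In the 4002 Ishikawa barcodes without a call, the trio was lower than in any kept culture: CYR61 was at 324 CPM, ANKRD1 at 329 CPM and CTGF at 18.0 CPM. In the same barcodes AJUBA and LATS2 stood at 16.6 and 17.4 CPM, within the range of the kept cultures. In T-47D barcodes without a call ANKRD1 had 110 UMIs (0.841 CPM) and CTGF 6 UMIs.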
